A study of Mus musculus with 3 samples.

Results

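Aminoacyl-tRNA synthetases were examined in mouse B cell lymphomas of the pBIC2 model, a C57BL/6 line built as a model of ABC-DLBCL, the activated B cell form of a common aggressive lymphoma. The genes were taken by name: all protein-coding rows named for a cytosolic or mitochondrial synthetase, together with Aarsd1, which carries a related name. The rule found 38 genes of the 37646 listed. Of these, 20 encode cytosolic enzymes (Gars and Kars among them, whose products also serve mitochondria), 17 encode mitochondrial enzymes, and Aarsd1 encodes a free alanyl-tRNA editing protein and not a synthetase. All 3 libraries carry the genotype p53F/F, Blimp1F/F, IKK2castopF/stopF, Cg1Cre/+ and Eµ-hBCL2tg/+. Cre expressed from the Cγ1 locus acts on the floxed p53 and Blimp1 alleles and switches on a constitutively active IKK2, and human BCL2 is a transgene under the Eµ enhancer. B220+GFP+ cells were sorted from spleens of moribund mice after dead cells were gated out with 7AAD, and polyA RNA was read as single 50 nt reads. Ages are not given in the labels, nor is it stated that the libraries came from separate mice, so the spread between libraries, here called tumours 1, 2 and 3, may be technical in part. The study compared these lymphomas with B220+YFP+ germinal centre cells of immunised mice, a contrast not analysed here. The results are therefore levels in 1 group of 3 lymphomas, with no test against normal B cells.

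A synthetase generally joins 1 kind of amino acid to the tRNAs that read its codons, and so supplies the charged tRNAs that ribosomes use. Cytosolic and mitochondrial ribosomes draw on separate sets of enzymes, nearly all encoded by separate nuclear genes. Class I and class II enzymes differ in the fold of the catalytic domain, and in mammals 8 cytosolic enzymes sit in a multisynthetase complex with scaffold proteins. Many cytosolic synthetase genes are known targets of ATF4, the transcription factor that responds to amino acid shortage, and growing lymphocytes are known to raise the tRNA charging machinery together with ribosomes.

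The libraries held 15576975 to 17014022 gene counts. All 8 B cell markers reached at least 50 CPM in each library (CPM, counts scaled to library size with TMM factors), with summed levels of 6532, 10534 and 9052 CPM in tumours 1, 2 and 3. Markers of other cell types also had counts, and from which cells these came was not tested. The sum of 7 T cell markers was 73.6, 50.6 and 783 CPM, with no count of Cd3e in tumour 1. Without Lck, which alone had 68.7, 23.5 and 199.9 CPM, the other 6 summed to 4.90, 27.0 and 583 CPM. The sum of 7 macrophage markers was 35.8, 402 and 179 CPM. Cd68 carried most of it in each tumour (24.8, 325 and 162 CPM), and the other 6 summed to 11.002, 77.4 and 17.2 CPM. The sum of 6 neutrophil markers was 0.199, 16.4 and 40.5 CPM, while 3 NK cell, 3 erythroid and 3 plasma cell markers stayed at sums of 15.8 CPM or less and Ncr1, which marks NK cells, had no count. In bulk samples such as these, fewer cells of a type and less RNA per cell cannot be told apart.

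Every synthetase gene was detected. The mean was at least 1 CPM in all 38, and 35 were at 10 CPM or more in all tumours, against 62.1% of the 12445 genes whose mean was at least 1 CPM (20.5% of all genes listed). The exceptions were Nars2, Pars2 and Aarsd1. Of the 11018 protein-coding genes with a mean of at least 1 CPM, 7597 were at 10 CPM or more in all tumours. Together the members held 0.649%, 0.809% and 0.501% of all counts in tumours 1, 2 and 3 (0.653% ± 0.154, SD, n = 3). The Wilson 95% interval of the lowest of these, in tumour 3, was 0.497% to 0.504%, and such intervals cover counting error only. The median member was at 101 ± 6.77 CPM (SD, n = 3), and the median over the 12445 genes was 28.9 ± 0.541 CPM. Over the protein-coding genes among them it was 36.2 ± 0.370 CPM.

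Summed over genes, the cytosolic share varied more between tumours than the mitochondrial share. Gene by gene the spread was similar. Single-gene SDs over the tumours, in log2 CPM, had a median of 0.348 among cytosolic and 0.360 among mitochondrial members. The 20 cytosolic genes held 0.573%, 0.735% and 0.428% of all counts, while the 17 mitochondrial genes held 0.0752%, 0.0736% and 0.0727%. On the TMM scale the cytosolic sum was 5919, 7429 and 4102 CPM and the mitochondrial sum 776, 744 and 697 CPM. The cytosolic sum was highest in tumour 2 and lowest in tumour 3. Leaving out Vars, the most abundant member, the synthetase share was 0.424%, 0.479% and 0.363%, in the same order of tumours.

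Vars, the cytosolic valyl-tRNA synthetase (ENSMUSG00000007029.16, chromosome 17, 35000987 to 35016322, plus strand, mm10), stood far above every other member. It had 35063, 54449 and 23377 counts, which is 2324, 3338 and 1318 CPM. That was 34.7%, 40.8% and 27.4% of all synthetase counts. Among protein-coding genes it ranked 20th, 14th and 36th by counts in tumours 1, 2 and 3. Per length, in RPKM (CPM per kilobase of summed exons), Vars was at 414, 595 and 235 RPKM. Its lowest tumour was above the highest value of any other member, 102 RPKM for Nars in tumour 1. By the same measure Vars ranked 58th, 38th and 99th among protein-coding genes. No exon of another annotated gene overlaps those of Vars.

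The next highest levels belonged to cytosolic and dual-targeted enzymes. Gars, the glycyl-tRNA synthetase of both compartments (chromosome 6, 55038007 to 55079500), was at 101, 79.8 and 57.7 RPKM. Nars, for asparagine, was at 102, 96.7 and 36.4 RPKM, and Hars, for histidine, at 88.6, 62.3 and 45.995 RPKM. All of these were lowest in tumour 3. Kars, the lysyl-tRNA synthetase of both compartments and a member of the complex (chromosome 8, 111993443 to 112011323), was steadier at 53.2, 64.4 and 60.7 RPKM. The cytosolic member of lowest level was Cars, for cysteine, with 13.4, 20.3 and 7.60 RPKM. Eprs, which charges both glutamate and proline tRNAs, was next at 13.3, 18.1 and 13.96 RPKM. The value of Eprs rests on a summed exon length of 18102 bases against 4906 for its longest coding transcript. With the latter, chosen after seeing the data, its mean was 55.7 RPKM in place of 15.1.

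At the low end stood mitochondrial enzymes and Aarsd1. Aarsd1 (chromosome 11, 101406839 to 101417615) had 22, 22 and 54 counts, with exact 95% Poisson intervals of 13.8 to 33.3 in tumours 1 and 2 and of 40.6 to 70.5 in tumour 3. These counts are 1.46, 1.35 and 3.04 CPM, or 0.478, 0.442 and 0.997 RPKM. Nars2, the mitochondrial asparaginyl-tRNA synthetase (chromosome 7, 96951505 to 97064758), was at 1.95, 1.87 and 1.05 RPKM. Wars2, for mitochondrial tryptophan, was at 2.03, 2.299 and 2.42 RPKM and Mars2, for mitochondrial methionine, at 2.62, 2.29 and 2.82 RPKM. Pars2, for mitochondrial proline, was at 1.799, 4.36 and 3.46 RPKM and lowest in tumour 1. The highest mitochondrial members were Rars2 for arginine (22.5, 24.2 and 16.1 RPKM), Sars2 for serine (16.4, 15.4 and 15.1 RPKM) and Tars2 for threonine (17.6, 12.96 and 14.3 RPKM).

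**Figure D1:**
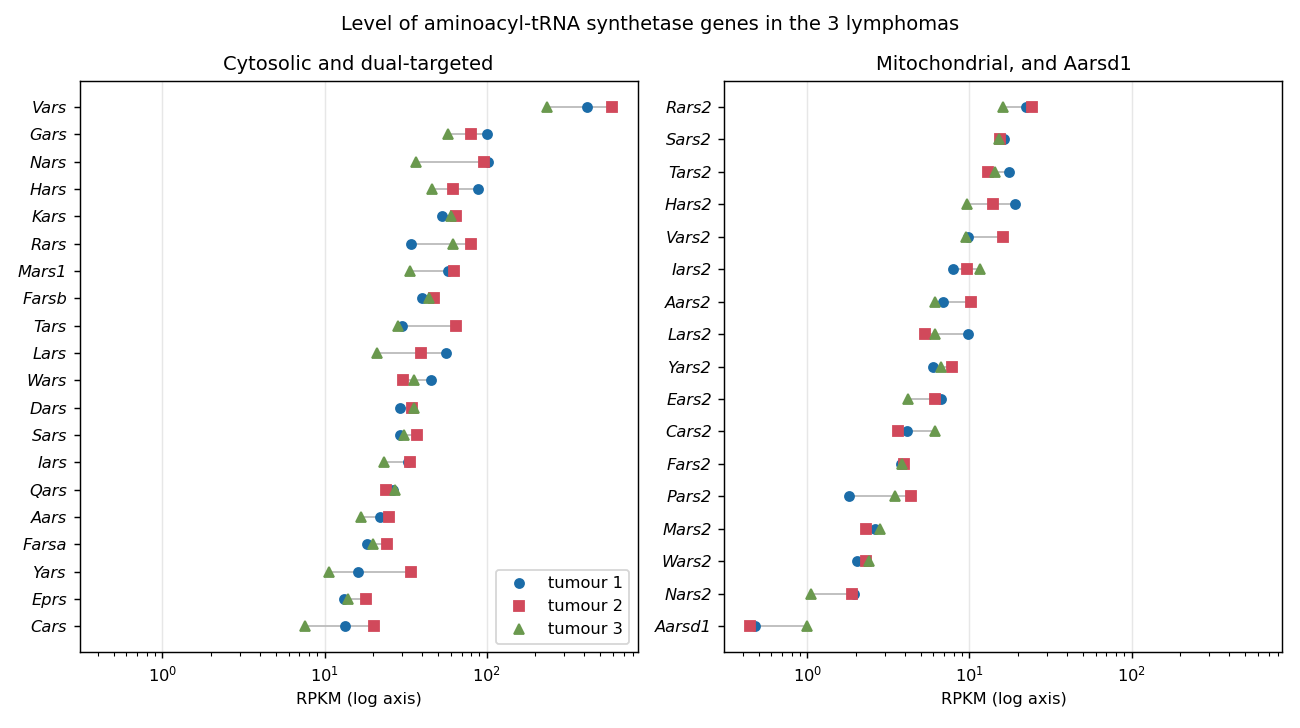
Level of synthetase genes in RPKM on a log axis, with 1 marker per tumour and a grey line from the lowest to the highest tumour. Cytosolic and dual-targeted genes are in the left panel, mitochondrial genes and Aarsd1 in the right. Vars lies at 235 to 595 RPKM, apart from all others, and no mitochondrial gene has a mean above the 20.9 RPKM of Rars2.

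Cytosolic genes were expressed above mitochondrial ones as a group. The median cytosolic gene was at 33.4, 38.3 and 32.3 RPKM and the median mitochondrial gene at 6.66, 6.10 and 6.11 RPKM. On the log2 RPKM scale the medians differed by 2.32, 2.64 and 2.40 in tumours 1, 2 and 3 (2.46 ± 0.17, SD, n = 3), or 5.49-fold. Of the 20 cytosolic genes, 16 had a mean above that of the highest mitochondrial gene, and 13 of the 17 mitochondrial genes were below the lowest cytosolic one. With 3 tumours the smallest two-sided p of an exact sign-flip test is 0.25, so no p is given.

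The same order held for each amino acid that has 1 enzyme gene in either compartment. In all 14 such pairs the cytosolic RPKM was the higher in every tumour, with the summed exon length, and the median pair ratio on the log2 scale was 2.13, 2.40 and 1.86 (2.13 ± 0.27, SD, n = 3). The widest ratios were those of Nars over Nars2, with log2 values of 5.70, 5.68 and 5.09, and of Vars over Vars2, with 5.39, 5.20 and 4.63. The narrowest on mean was that of Sars over Sars2, with 0.83, 1.27 and 1.03. This ranking depends on the length used. With no length correction, Vars over Vars2 was widest on mean (5.11) and Iars over Iars2 narrowest (0.86). With the longest coding transcript as length, chosen after seeing the data, 13 of the 14 pairs were higher on the cytosolic side in every tumour, and Cars over Cars2 turned to -0.58 in tumour 3. These pairs differ more from each other than any 1 of them differs between tumours.

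Some pairs kept their ratio while both genes varied, and others did not. Hars was at 217, 152 and 113 CPM and Hars2 at 81.4, 59.95 and 41.2 CPM, and their log2 RPKM ratio was 2.22, 2.15 and 2.25, the smallest SD of all pairs at 0.052. These 2 genes lie head to head on opposite strands with 195 shared exon bases, so some reads may not be told apart. Cars over Cars2 gave 1.71, 2.48 and 0.32 (SD 1.10), the largest SD. There the cytosolic gene was at 88.3, 133 and 50.05 CPM and the mitochondrial one at 29.7, 26.1 and 44.1 CPM, so tumour 3 had the least Cars and the most Cars2. Tars over Tars2 gave 0.77, 2.32 and 0.98, with Tars2 at 122, 89.9 and 99.3 CPM. Rars over Rars2 was smallest in tumour 1, at 0.61 against 1.73 and 1.93. Yars over Yars2 was 1.43, 2.13 and 0.66.

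Other pairs lay between these. Mars1 over Mars2 was 4.46, 4.78 and 3.58, and Wars over Wars2 4.47, 3.73 and 3.86. Lars over Lars2 was 2.503, 2.89 and 1.79. Iars over Iars2 was 2.03, 1.80 and 1.02, and Aars over Aars2 1.68, 1.28 and 1.46. For the amino acids without a one-to-one pair, Eprs over Ears2 was 0.99, 1.56 and 1.74 and Eprs over Pars2 2.85, 2.04 and 1.996. With the longest coding transcript as length, Eprs over Ears2 was 1.54, 2.12 and 2.30 and Eprs over Pars2 4.74, 3.91 and 3.87. Farsa and Farsb, the subunits of the cytosolic phenylalanyl-tRNA synthetase, were above the single-chain mitochondrial Fars2 by 2.25, 2.63 and 2.37 and by 3.38, 3.58 and 3.52. Farsa and Farsb themselves were at 82.4, 110.9 and 90.5 CPM and at 105, 124 and 116 CPM, each lowest in tumour 1 and highest in tumour 2.

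**Figure D2:**
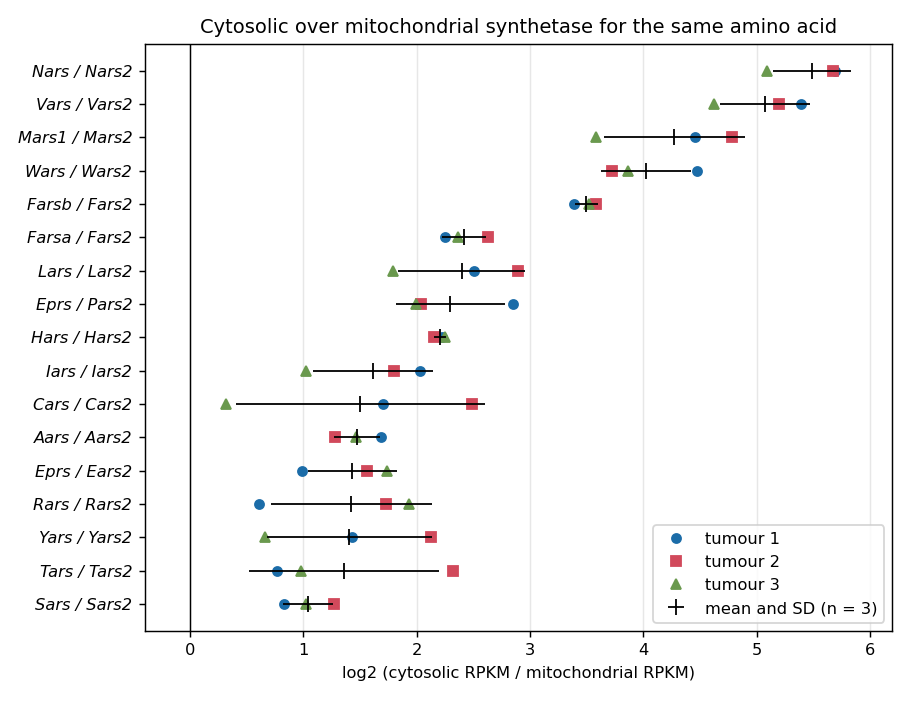
Log2 ratio of cytosolic over mitochondrial RPKM for the enzymes of the same amino acid, with 1 coloured marker per tumour and a black line for the mean and SD over the 3 tumours. Eprs, Farsa and Farsb have no one-to-one partner and are shown with the nearest mitochondrial enzyme. All ratios drawn are above 0 in each tumour, from a mean of 1.04 for Sars over Sars2 to 5.49 for Nars over Nars2.

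Genes of the multisynthetase complex and other cytosolic genes had similar median levels. The 8 complex members (Dars, Eprs, Iars, Kars, Lars, Mars1, Qars and Rars) had a median of 33.4, 36.96 and 30.5 RPKM, and the 12 cytosolic genes outside the complex 34.96, 42.2 and 33.1 RPKM. Between tumours the complex members had a median SD of log2 CPM of 0.265 and the others of 0.440. By class, the medians were 31.9 ± 4.14 RPKM over 9 cytosolic class I genes and 41.95 ± 11.2 RPKM over 10 class II genes (SD, n = 3), with Eprs in neither as it holds both kinds of domain. The median SD between tumours was 0.627 for class I and 0.253 for class II. Genes are not replicates, and none of these differences was tested.

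The scaffold proteins of the complex shared 1 order of tumours. Aimp1, which anchors the arginyl- and glutaminyl-tRNA synthetases, was at 51.8, 109 and 89.05 CPM. Aimp2, the core scaffold, was at 37.98, 60.1 and 43.3 CPM, and Eef1e1 (AIMP3) at 31.6, 51.9 and 36.8 CPM. All 3 were lowest in tumour 1 and highest in tumour 2, as were 3 of the 8 complex enzymes (Eprs, Kars and Rars). Dars, Iars, Lars, Mars1 and Qars had other orders. Of all genes tested, 38.1% were lowest in tumour 1 and 31.1% highest in tumour 2. The share in both counts was not computed, so this order shows nothing particular to the complex. Among Eprs, Kars and Rars, the difference between tumours 1 and 2 was widest in Rars, whose product binds Aimp1, with 111, 259 and 199 CPM.

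Between tumours, the median SD of log2 CPM was 0.375 over the 38 members, 0.439 over the 12445 genes tested and 0.373 over the 8762 genes that averaged 10 CPM or more. The last set is not matched on abundance: its median level was 53.0 CPM, against 101 CPM for the members. Over the 11018 protein-coding genes among the 12445, the median SD was 0.420. Fars2 was the steadiest, with 21.9, 22.6 and 22.1 CPM (SD 0.0248), followed by Sars2 with 54.3, 51.0 and 50.1 CPM (SD 0.0615) and by Qars, the glutaminyl enzyme of the complex, with 174, 158 and 178 CPM (SD 0.0933). In 29 of 38 members the highest tumour was under 2-fold above the lowest, against 58.7% of all genes tested.

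Only 4 members, or 10.5% of 38, had a tumour at least 2-fold above or below both others. Of the 12445 genes 28.4% did, as did 17.3% of the 8762 more abundant ones and 2964 of the 11018 protein-coding ones. Yars, for tyrosine (chromosome 4, 129189760 to 129219607), was at 95.6, 204 and 63.5 CPM. Tars, for threonine (chromosome 15, 11382301 to 11399665), was at 177, 382 and 167 CPM. Both were highest in tumour 2, where 4.90% of all genes stood at least 2-fold above both other tumours. Nars was at 444, 421 and 159 CPM and stood below in tumour 3, as 4.06% of genes did. Aarsd1 stood above in tumour 3, as 7.67% of genes did, by a log2 gap of 1.002, which rests on the counts given above and was 0.97 when genes of low count were kept in the scaling. It shares 1250 exon bases with Gm27029 on the same strand, which had 0, 2 and 2 counts. None of these 4 calls held after centring on the chromosome median, a step described further on and chosen after seeing the data, with log2 gaps of 0.83 for Yars, 0.75 for Tars, -0.46 for Nars and 0.38 for Aarsd1. No member stood apart in tumour 1, where 5.19% of genes stood above and 10.7% below both others. At 1.5-fold in place of 2-fold, 14 members stood apart, against 52.0% of all genes. With 1 library per tumour these are differences between libraries, without a replicate.

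Other members came close to that threshold. Lars, for leucine, was at 300.3, 212 and 114 CPM, Cars at 88.3, 133 and 50.05 CPM and Vars at 2324, 3338 and 1318 CPM. In each of these, and in Nars2 (13.6, 13.1 and 7.33 CPM), tumour 3 was lowest, with log2 gaps to the nearest tumour of -0.90, -0.82, -0.82 and -0.82. Rars and Pars2 were lowest in tumour 1, by log2 gaps of -0.85 and -0.93. The 5 members of largest SD were Yars, Nars, Lars, Cars and Vars, with 0.852, 0.836, 0.710, 0.709 and 0.676. All 5 are cytosolic, as are 20 of the 38 members, and all 5 were lowest in tumour 3, as 33.0% of all genes tested were. These 5 were picked for their SD, and the share lowest in tumour 3 among genes of similar SD was not computed.

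Promoters of Tars and Yars are shown because these 2 genes stood above in the same tumour, beside those of their mitochondrial partners, which did not. The sequences come from RefSeq (GRCm38.p6, the mm10 assembly) and run from 250 bases before to 50 after the start site, 5′ to 3′ on the strand of the gene. Capitals mark matches to TGATGNAA on either strand, the letters of the amino acid response element that ATF4 binds as a dimer with C/EBP proteins.
Tars (chr15:11399609-11399908, minus strand): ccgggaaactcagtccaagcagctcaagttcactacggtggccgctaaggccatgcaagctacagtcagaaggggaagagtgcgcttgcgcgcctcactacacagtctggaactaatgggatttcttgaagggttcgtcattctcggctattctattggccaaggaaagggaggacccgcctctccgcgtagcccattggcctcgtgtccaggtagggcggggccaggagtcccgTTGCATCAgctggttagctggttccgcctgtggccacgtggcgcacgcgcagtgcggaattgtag
Tars2 (chr3:95754928-95755227, minus strand): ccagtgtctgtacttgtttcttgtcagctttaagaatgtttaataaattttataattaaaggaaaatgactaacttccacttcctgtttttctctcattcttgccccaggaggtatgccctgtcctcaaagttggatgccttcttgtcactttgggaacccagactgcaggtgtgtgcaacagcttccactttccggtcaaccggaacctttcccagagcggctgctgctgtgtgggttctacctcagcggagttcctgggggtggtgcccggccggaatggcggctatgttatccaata
Yars (chr4:129189653-129189952, plus strand): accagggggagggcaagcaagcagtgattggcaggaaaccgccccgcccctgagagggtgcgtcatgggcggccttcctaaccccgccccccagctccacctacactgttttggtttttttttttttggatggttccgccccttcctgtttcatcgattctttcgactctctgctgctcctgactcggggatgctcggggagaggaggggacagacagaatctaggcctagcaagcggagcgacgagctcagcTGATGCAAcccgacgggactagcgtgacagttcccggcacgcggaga
Yars2 (chr16:16302715-16303014, plus strand): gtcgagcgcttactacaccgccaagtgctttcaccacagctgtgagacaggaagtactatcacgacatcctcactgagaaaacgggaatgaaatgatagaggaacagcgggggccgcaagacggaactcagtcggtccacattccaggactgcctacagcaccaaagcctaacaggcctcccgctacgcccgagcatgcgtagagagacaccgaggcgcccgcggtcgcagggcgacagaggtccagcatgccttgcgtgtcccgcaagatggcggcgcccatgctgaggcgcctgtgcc
The match begins 15 bases before the start site in Tars and at base 4 of the transcript in Yars, and neither mitochondrial promoter holds one.

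The RefSeq table had promoters of 28 members, 13 of them cytosolic and 14 mitochondrial. TGATGNAA was found in 5 of the 13 cytosolic genes (Aars, Gars, Iars, Tars and Yars), or 38.5%, and in none of the 14 mitochondrial genes. Of all 27025 genes in the table, 4.51% held it. In the other 3 cytosolic genes the match begins 112 bases before and 10 bases after the start in Aars, which has 2, 30 bases before it in Gars and 8 bases after it in Iars. CACGTG, the E-box that Myc and other factors bind, was in 5 of the 28 genes (Aars, Ears2, Farsb, Iars and Tars; 17.9% against 8.09% of all genes). GGGCGG, the GC box, was in 20 of 28 (71.4% against 38.2%) and TATAAA in 3 of 28 (10.7% against 15.7%). All 4 motifs were read on both strands, and a gene counts once whichever of its promoters holds the letters. A match is a description of the letters and not a bound site. Aars, Gars and Iars hold TGATGNAA and did not stand apart in any tumour. In tumour 2 their log2 CPM differed from the mean of the other tumours by 0.36, 0.06 and 0.29. Whether a match bears on the level was not tested. Members without a promoter entry included Cars, Hars, Hars2, Lars, Nars, Pars2, Rars, Vars and Wars.

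Compared tumour by tumour, cytosolic genes were more often highest in tumour 2 than mitochondrial genes, a difference that was not tested. Of 20 cytosolic genes, 13 were highest in tumour 2 (31.1% of all genes tested were) and 11 were lowest in tumour 3 (33.0% of all genes), with 7 of the 20 in both counts. Their median difference from the mean of the other 2 tumours was 0.08 in tumour 1, 0.33 in tumour 2 and -0.49 in tumour 3 on the log2 scale. Over all genes tested these medians were -0.03, 0.02 and 0.04. Of the 17 mitochondrial genes, 6 were highest in tumour 2 and 7 lowest in tumour 3, with 3 in both counts. Their medians were -0.03, 0.05 and -0.07. The share of all genes in both counts was not computed, so the 7 and the 3 cannot be set against it. Lars2 (109, 58.9 and 67.7 CPM) was highest in tumour 1, Vars2 (53.8, 88.2 and 51.8 CPM) and Aars2 (32.6, 48.7 and 29.0 CPM) in tumour 2, and Iars2 (70.7, 86.4 and 103 CPM) and Cars2 in tumour 3. Tumour 3 was also the library with the most T cell marker counts, and tumour 2 that with the most macrophage marker counts. Their part in these differences was not tested.

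**Figure D3:**
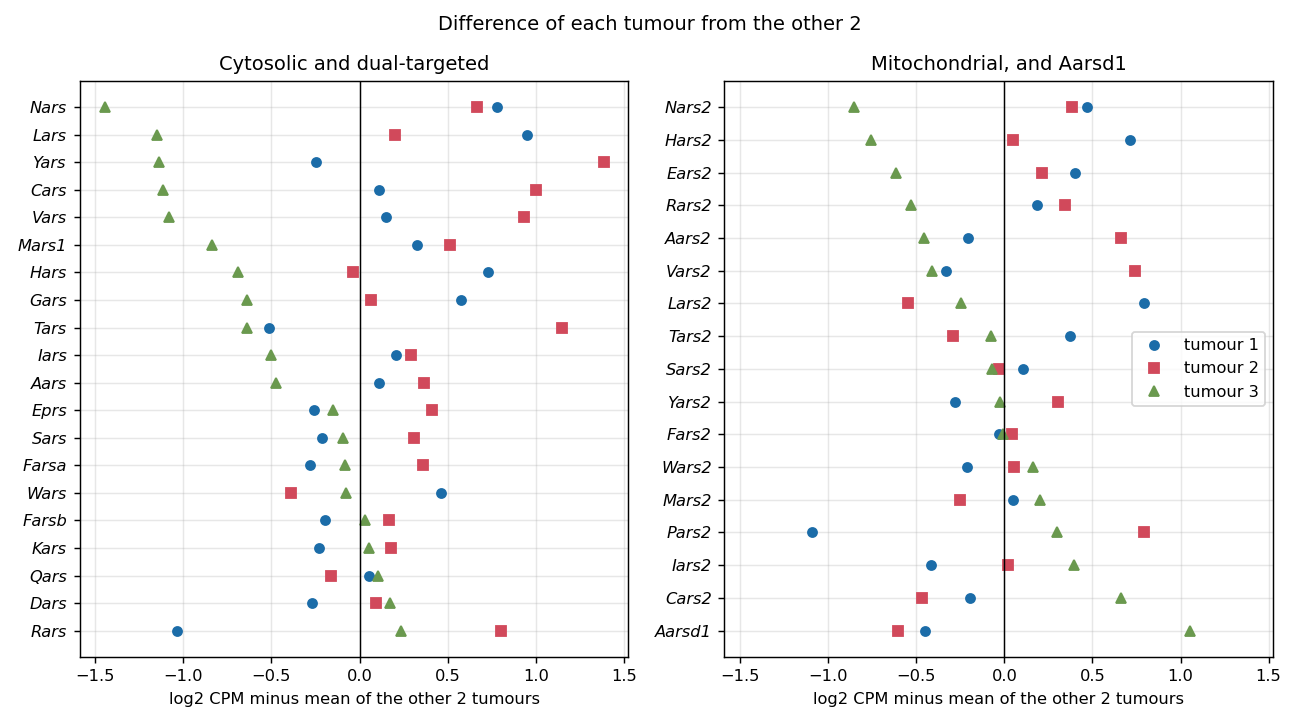
Difference of each tumour from the mean of the other 2 on the log2 CPM scale, with 1 marker per tumour, for cytosolic and dual-targeted genes (left) and for mitochondrial genes and Aarsd1 (right), ordered by tumour 3. Most cytosolic genes have tumour 2 on the right and tumour 3 on the left, with medians of 0.33 and -0.49, while the mitochondrial genes lie on both sides in all 3 tumours.

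For part of the synthetase genes, the differences between tumours resembled those of other genes on the same chromosome. Synthetase genes are spread over 15 chromosomes, and 4 of them, Hars, Hars2, Lars and Nars, lie on chromosome 18. All 4 were highest in tumour 1 (33.6% of all genes were) and lowest in tumour 3. The 299 other genes tested on chromosome 18 had a median difference from the mean of the other tumours of 0.90 in tumour 1, -0.21 in tumour 2 and -0.64 in tumour 3, and 85.6% of them were higher in tumour 1 than that mean. Hars differed by 0.73, -0.04 and -0.69, Hars2 by 0.71, 0.05 and -0.76, Lars by 0.95, 0.20 and -1.15 and Nars by 0.78, 0.67 and -1.45. The first pair stayed close to the rest of the chromosome. Relative to its median, Lars and Nars were at 0.41 and 0.87 in tumour 2 and at -0.51 and -0.81 in tumour 3.

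On other chromosomes some members followed the median and others did not. On chromosome 11 the median gene differed by -0.56, 0.15 and 0.38, and Rars, which lies there (35808381 to 35834506), by -1.04, 0.80 and 0.24. Aarsd1, on the same chromosome, differed by -0.45, -0.60 and 1.05. On chromosome 10 the medians were 0.42, 0.30 and -0.72, and Mars1, for methionine (127296221 to 127311786), differed by 0.33, 0.51 and -0.84. Mars1 shares 68 exon bases with Ddit3 on the opposite strand, a target and partner of ATF4 that had 969, 1674 and 295 counts. On chromosome 17 the medians were 0.14, 0.24 and -0.38, beside 0.15, 0.93 and -1.08 for Vars. Aars, on chromosome 8, went against its chromosome in every tumour, with 0.11, 0.36 and -0.47 beside medians of -0.10, -0.12 and 0.23. So did Iars on chromosome 13, with 0.21, 0.29 and -0.50 beside -0.12, -0.08 and 0.24. Across 38 members, a gene's difference and its chromosome's median had a Pearson r of 0.756, 0.606 and 0.764 in tumours 1, 2 and 3. In these tumours 30, 20 and 27 members had the sign of that median. The same count was not made over all genes, so it shows nothing particular to the members. The part of the chromosome in the differences was not tested. Members of 1 chromosome share that median and all share the 3 libraries, so r is a description only. DNA copy number was not analysed here.

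Centring log2 CPM on the chromosome median, a step chosen after seeing the data, lowered the median SD of the 38 members from 0.375 to 0.268, and that of all genes tested from 0.439 to 0.360. After it no member was 2-fold apart from both other tumours, against 25.8% of all genes. Pars2 in tumour 1 missed that threshold only narrowly, with a centred log2 gap of -0.998 against -0.93 before centring. Among cytosolic genes, 19 of 20 were then highest in tumour 2 (32.2% of all genes) and 14 were lowest in tumour 3 (31.9%). Wars, for tryptophan, an enzyme known to be induced by interferon, was the exception, with 157, 106 and 122 CPM. Yars, Cars, Nars and Tars had the largest centred differences in tumour 2, at 1.05, 0.93, 0.89 and 0.84 on the log2 scale.

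**Figure D4:**
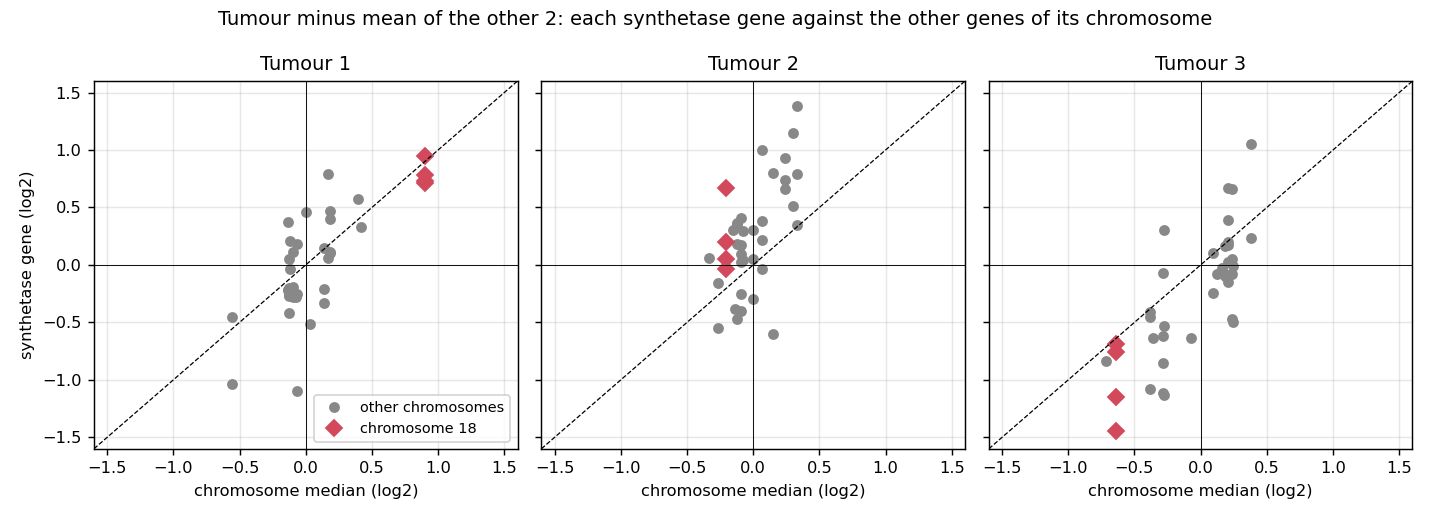
For each tumour, the log2 difference of each synthetase gene from the mean of the other 2 tumours (vertical axis) against the median of the same difference over the other genes of its chromosome (horizontal axis). The dashed line marks equal values and diamonds mark the 4 genes on chromosome 18, which lie at a chromosome median of 0.90 in tumour 1 and -0.64 in tumour 3. Points in tumour 2 lie mostly above the line.

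ATF4 response genes other than synthetases were also mostly highest in tumour 2 and lowest in tumour 3. Atf4 itself was at 613, 684 and 310.5 CPM. Of 21 genes of the amino acid response, 14 were highest in tumour 2 (31.1% of all genes tested were) and 16 lowest in tumour 3 (33.0%), and 11 had a tumour at least 2-fold from both others (28.4%). Vldlr, with 0, 0 and 1 counts, and Nupr1 had means under 1 CPM, and among the other 19 these counts were 14, 15 and 10. Asns, the asparagine synthetase, was at 40.1, 58.5 and 9.41 CPM, Ddit3 (CHOP) at 64.2, 103 and 16.6 CPM and Eif4ebp1, a brake on translation initiation, at 35.5, 39.2 and 3.04 CPM. Trib3 had 14, 103 and 23 counts and Slc7a11, the cystine transporter, 3, 105 and 1, so most counts of both came from tumour 2. Slc7a5, a transporter of large neutral amino acids, was at 142, 132 and 105 CPM and Slc1a5, for glutamine and other neutral amino acids, at 558, 292 and 252 CPM, both highest in tumour 1.

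Growth genes and proliferation genes were at opposite ends in tumour 2. All 8 Myc and growth genes were highest there, as 31.1% of all genes were, among them Myc at 712, 995 and 646 CPM and Nop56, a nucleolar protein of ribosome assembly, at 136, 322 and 225 CPM. All 8 proliferation genes were lowest there, as 28.9% of all genes were, among them Mki67 at 1034, 480.2 and 997 CPM. Tumour 2 thus had the highest level of most cytosolic synthetases beside the lowest level of proliferation genes. The lists were chosen with earlier results of these libraries known, so their order of tumours is no independent support.

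**Figure D5:**
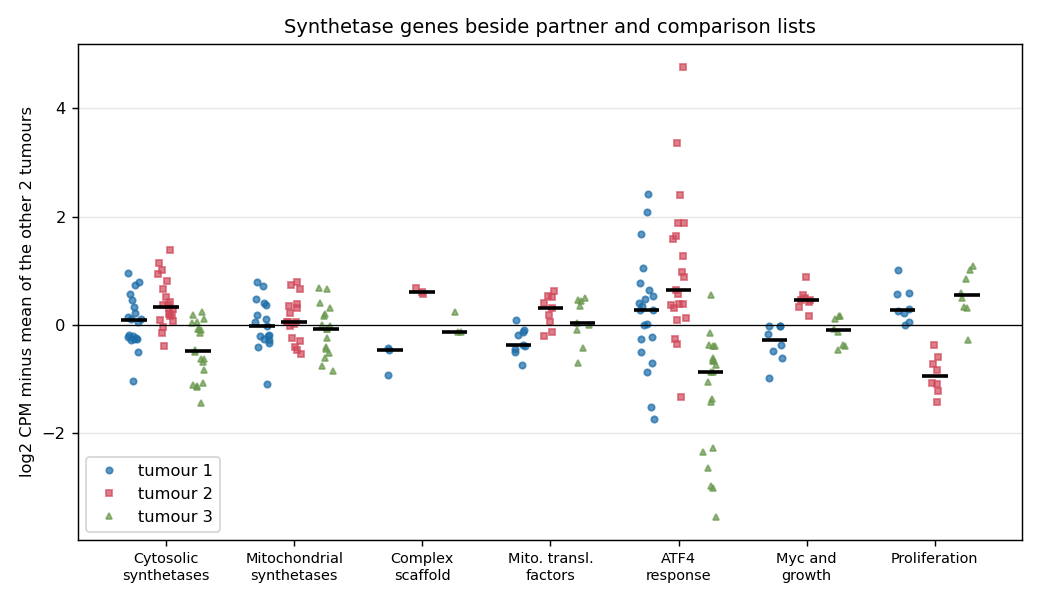
Difference of each tumour from the mean of the other 2 on the log2 CPM scale for the cytosolic and mitochondrial synthetases and 5 other lists. Each marker is a gene, black bars are medians. Every list drawn except the proliferation genes has its highest median in tumour 2. These medians are 0.33 for cytosolic and 0.05 for mitochondrial synthetases, 0.60 for scaffold genes and 0.30 for mitochondrial translation factors. They are 0.65 for ATF4 response genes and 0.46 for Myc and growth genes. Proliferation genes have their lowest median there (-0.96).

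Further genes act on charged tRNAs in mitochondria. Mitochondria have no glutaminyl-tRNA synthetase, and the amidotransferase encoded by Qrsl1, Gatb and Gatc converts glutamate on the tRNA instead. Qrsl1 was at 98.8, 111 and 60.9 CPM, Gatb at 17.6, 30.7 and 26.2 CPM and Gatc at 36.2, 25.01 and 21.8 CPM, which share no order of tumours. Mtfmt, which formylates the initiator methionyl-tRNA, was at 25.9, 42.4 and 40.97 CPM. The 9 mitochondrial translation factors had a median of 16.8, 23.1 and 20.7 CPM, and 6 of them were lowest in tumour 1 (38.1% of all genes were). Gfm1, an elongation factor, was the steadiest at 58.5, 69.5 and 63.9 CPM, and Tufm, which delivers charged tRNAs to the mitochondrial ribosome, was at 15.5, 23.1 and 19.3 CPM.

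Other steps of tRNA charging varied within 2-fold for the most part. Sars also charges the selenocysteine tRNA with serine, which Pstk and Sepsecs then convert with selenium activated by Sephs2. Sars was at 149.8, 191 and 159 CPM, Sepsecs at 59.2, 40.8 and 26.5 CPM, Sephs2 at 62.8, 64.9 and 44.4 CPM and Pstk at 6.43, 7.66 and 8.06 CPM. Eefsec, the elongation factor of selenocysteine, was at 52.8, 33.9 and 73.1 CPM. Trnt1, which adds the CCA end to tRNAs, was at 123, 103 and 76.1 CPM. Ankrd16, which binds alanyl-tRNA synthetase and limits mischarging, was at 37.1, 63.6 and 71.5 CPM, and Tarsl2, a second cytosolic threonyl-tRNA synthetase outside the naming rule, at 10.6, 8.15 and 6.09 CPM, far below Tars. Dtd1 and Dtd2, which remove wrongly attached amino acids from tRNAs, were at 23.7, 32.9 and 16.5 CPM and at 8.88, 10.7 and 10.7 CPM.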

How the data were processed

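RNA of sorted B220+GFP+ cells, selected for polyA tails, was read as single 50 nt reads in 3 libraries, per the labels. Values are the authors' deposited raw counts, summed by gene. The submitters' processing notes name FastQC, STAR 2.5.2b, featureCounts 1.6.0 and the build mm10. The annotation release and strand setting were not given in the sources used here, and reads of overlapping genes may not be told apart. Of the 38 members, 15 share exon bases with another annotated gene, most in Iars2 (2034 bases with Rab3gap2).

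The members and lists were chosen with earlier results of these data known, and libraries were numbered in accession order. TMM factors (0.969, 0.990 and 1.04) were computed with edgeR 4.0.16 in R 4.3.3 on the 11273 genes that filterByExpr kept. Log2 CPM used a prior count of 2. RPKM divided CPM by the summed exon length in GENCODE M21 (mm10), to which 37536 of 37646 identifiers matched without version. DESeq2 1.42.0 gave alternative size factors. Python 3.11.15 ran the remaining steps, with pandas 2.3.3 and NumPy 2.4.6 for tables, SciPy 1.17.1 for intervals and matplotlib 3.10.9 for figures. A tumour stood apart when its log2 CPM was at least 1 above or below both others. This step was tried on simulated counts whose planted changes were all well above 2-fold, so changes near the threshold were not covered. A count of 3 is 0.199, 0.184 and 0.169 CPM in tumours 1, 2 and 3. Named by rule were the 5 highest and 5 lowest members per length, the 5 of largest and 3 of smallest SD, all that stood apart and all pairs. One member, kept in every count and median, is not reported here by name. Other members and list genes were named after their values were seen.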

Additional observations from a re-analysis of the deposited data

How the results depend on the processing

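No paired analysis was possible because the labels give 1 group without replicate numbers. Alternatives were DESeq2 size factors, total counts, no low-count filter, each tumour left out, a prior count of 0.5, other lengths and thresholds, and, chosen after seeing the data, centring by chromosome, the longest coding transcript, Vars left out, a floor of 1 CPM on the ATF4 list and the counts of cytosolic and mitochondrial genes by tumour. The median level of the 38 members (6.62 on the log2 CPM scale) ranged from 6.44 to 6.71 with a tumour left out, the lowest without tumour 2, and is 4.07 in log2 RPKM, another unit. The cytosolic excess of 2.46 (log2) was 2.62 with means in place of medians and 2.21 with the longest coding transcript. The 4 members that stood apart became 14 at 1.5-fold (52.0% of all genes there) and 0 after centring on the chromosome, and ranged from 3 to 6 with a tumour left out, where only 1 other tumour remains to compare. The median SD of 0.375 ranged from 0.223 to 0.320 with a tumour left out, with 2 values each, and was 0.268 after centring. The share of counts, 0.653%, was 0.422% without Vars. Cytosolic genes lowest in tumour 3 (11) ranged from 12 to 17 and mitochondrial genes highest in tumour 2 (6) from 8 to 10 with another tumour left out, since 2 tumours remain. Pair ratios averaged over tumours kept their sign, but with the longest coding transcript Cars over Cars2 was -0.58 in tumour 3. The averaged ratios moved beyond their SD over tumours in 21 recomputed values, all with another length or none, and stayed within it in 69. Leaving out 1 of 3 tumours cannot move a mean beyond that SD. The values among the 69 with a tumour left out were therefore bound to stay, and say nothing on how firm the ratios are. Depth limits Aarsd1 most, with 22 counts in tumours 1 and 2.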
